A study of Homo sapiens with 45 samples.

Results

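The genes described here are the numbered zinc finger genes of human chromosome 19: protein-coding genes whose symbol is ZNF followed by a number, with or without a letter, and whose position in the GRCh38 annotation (GENCODE 29) is on that chromosome. The rule found 247 such genes among the 60675 genes in the count tables, and 229 of them passed the filter on low counts and were tested, beside 21242 tested genes in all. For comparison there were 262 ZNF genes on other chromosomes, 243 of them tested, and 1211 other protein-coding genes on chromosome 19, 898 of them tested. The name was checked against the coding sequences: the 247 members held a median of 12 C2H2 finger matches, from 0 to 36, and ZNF738 was the member with none in its longest annotated coding sequence. A short KRAB sequence signature was found in 158 of 247, and a missed match does not show that the domain is absent.

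C2H2 zinc finger proteins bind DNA through tandem fingers, each of which reads a few bases. Many of those on chromosome 19 carry a KRAB domain, which recruits TRIM28 and, through it, the histone methyltransferase SETDB1, and many of them bind transposable elements. The genes arose largely by tandem duplication and lie in clusters, and the ends of many ZNF genes are themselves marked by methylated histone H3 lysine 9, to which the member ZNF274 contributes.

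The study sequenced polyadenylated RNA from HEK293F cells, a suspension-adapted line derived from human embryonic kidney, at 0, 24 and 72 h after transfection with 3 plasmids: pHelper, RepCap9 and a reporter flanked by ITRs. Such a transfection supplies the components of an adeno-associated virus vector. There were 5 lines: 293F, labelled wild type; AC1P, labelled wild type and polyclonal; and AC1.112, AC1.203 and AC1.230, each labelled wild type and clonal. Each of the 15 groups of line and time had 3 libraries, so that 45 libraries were analysed. No mock-transfected library was analysed here, so time in culture and transfection cannot be told apart. Each clone is 1 line, and the labels do not say whether the 3 libraries of a group came from separate cultures, so a p-value compares a difference only with the spread of the libraries sequenced, which may be technical. A library held 24727028 to 59837051 counts, with a median of 39247411, of which 0.237% to 0.415% came from the members. Of the markers of the embryonic kidney line, VIM was at 590 to 1550 CPM (counts scaled to the size of the library) and PAX2 at 0.198 to 8.8 CPM, and the summed level of 10 markers of blood, liver, endothelium and muscle was 0.211 to 2.9 CPM. The sum was highest in 293F, at 1.48 to 2.31 CPM at 0 h against 0.211 to 0.997 CPM in the AC1 lines, and CKM gave its highest single value, 2.23 CPM; the part of these transcripts in the line differences was not tested.

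Along the chromosome the members formed 16 runs separated by gaps of more than 1 Mb, and 9 of these sub-clusters held at least 5 members and 236 members together. The largest were sub-cluster 16, with 59 members from ZNF628 to ZNF446 (chr19:55476332-58481230), sub-cluster 15, with 39 members from ZNF175 to ZNF331 (chr19:51571298-53580269), and sub-cluster 5, with 37 members from ZNF101 to ZNF254 (chr19:19668796-24129961). The others were sub-clusters 9 (27 members, chr19:36182060-37817300), 3 (25, chr19:11483427-12640098), 12 (24, chr19:43525497-45076588), 2 (15, chr19:7069444-9793180), 1 (5, chr19:2819874-2944971) and 8 (5, chr19:34677639-34964049). No other protein-coding gene in the span of sub-cluster 5 passed the filter, while 35 did in sub-cluster 2, 22 in sub-cluster 12 and 29 in sub-cluster 16.

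The windows that flank the starts of 4 members are printed because these genes separated the lines at 0 h: ZNF671 was at 0 counts in the AC1 lines, ZNF544 was near 0 in AC1.203, ZNF682 was high in the AC1 lines and low in 293F, and ZNF43 was graded across the lines. They are RefSeq windows of the build GRCh38.p14, from 250 bases before to 50 after the annotated start, written 5′ to 3′ on the gene's strand with each CG in capitals. ZNF671 lies on the minus strand (chr19:57727575-57727874, 11 CG), ZNF682 on the minus strand (chr19:20039456-20039755, 9 CG), ZNF43 on the minus strand (chr19:21836133-21836432, 12 CG) and ZNF544 on the plus strand (chr19:58228664-58228963, 31 CG). The starts of ZNF43 and ZNF544 lie inside the longer gene spans of GENCODE 29.
ZNF671: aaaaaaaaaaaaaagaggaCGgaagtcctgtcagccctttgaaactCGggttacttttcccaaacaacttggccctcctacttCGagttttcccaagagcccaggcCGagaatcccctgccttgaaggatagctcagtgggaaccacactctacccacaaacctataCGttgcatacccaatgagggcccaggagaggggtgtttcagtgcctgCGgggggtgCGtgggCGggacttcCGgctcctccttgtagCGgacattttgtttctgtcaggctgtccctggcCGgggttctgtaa
ZNF682: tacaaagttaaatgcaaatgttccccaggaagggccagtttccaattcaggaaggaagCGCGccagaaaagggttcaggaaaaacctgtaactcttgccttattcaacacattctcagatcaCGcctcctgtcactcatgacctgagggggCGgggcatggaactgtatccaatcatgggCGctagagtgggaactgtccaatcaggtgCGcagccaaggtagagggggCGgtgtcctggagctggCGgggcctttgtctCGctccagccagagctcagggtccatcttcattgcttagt
ZNF43: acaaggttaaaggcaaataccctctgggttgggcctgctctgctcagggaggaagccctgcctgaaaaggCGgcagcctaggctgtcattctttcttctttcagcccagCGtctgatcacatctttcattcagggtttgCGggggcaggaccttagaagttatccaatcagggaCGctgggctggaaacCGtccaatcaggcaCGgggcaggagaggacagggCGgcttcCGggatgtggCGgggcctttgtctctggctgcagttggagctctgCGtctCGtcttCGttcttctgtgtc
ZNF544: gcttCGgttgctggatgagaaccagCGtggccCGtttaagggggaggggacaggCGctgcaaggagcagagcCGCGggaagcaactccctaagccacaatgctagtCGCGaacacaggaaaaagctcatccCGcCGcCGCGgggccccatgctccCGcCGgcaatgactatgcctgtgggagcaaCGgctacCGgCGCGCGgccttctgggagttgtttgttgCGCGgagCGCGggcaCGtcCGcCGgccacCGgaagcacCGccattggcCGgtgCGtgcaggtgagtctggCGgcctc
A window was found for 216 of the 247 members, with a median of 20 CG, against 14 over all 35116 windows of that length, of which 96% held at least 1 CG. The wider set was not matched to the members by type of gene, and the difference was not tested. The medians of the sub-clusters ran from 10 in sub-cluster 5 (29 windows) to 26 in sub-cluster 8 (4 windows). A CG count describes these letters and does not show whether they are methylated.

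At 0 h, 201 members reached a mean of at least 1 CPM over the 15 libraries, and the median member was at 8.47 CPM. Per kilobase of exon, the highest were ZNF146, a protein made almost wholly of fingers, at 39.4 CPM per kb (SD 2.6, n = 15), then ZNF581 at 25.6, ZNF428 at 25.5, ZNF358 at 18.4 and ZNF787 at 11.6 CPM per kb. The SD over the same libraries was 5.04 CPM per kb for ZNF581, 7.2 for ZNF428 and 5.16 for ZNF358. These means and SDs pool lines that differ. ZNF428 was at 35.4 CPM per kb in 293F and 14 in AC1.203, where ZNF581 was at 17.9 and 30.4, so their order turned between these lines. ZNF358 was at 9.68 in 293F, under ZNF787 (10.4), and at 24.6 in AC1P. ZNF146 was the highest in each of the 5 lines. The 18 members that were not tested had means of 0.000543 to 0.0703 CPM over all libraries.

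The first comparison asked which members differed between the lines before transfection. Of 229 tested, 61 (26.6%) differed between the 5 lines with an adjusted p under 0.05 and fitted means at least 2-fold apart, against 38.4% of all genes tested. Among the 4 AC1 lines alone 34 members (14.8%) did so, against 22.3% of all genes. At an adjusted p under 0.05 alone, without the 2-fold condition, the order turned: 198 members (86.5%) differed between the 5 lines, against 80.8% of all genes, and 166 (72.5%) between the AC1 lines, against 68.1%. The difference between the members and all genes was not tested.

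Against 293F, 19 members were called higher and 18 lower in AC1P, where 8.51% and 14.4% of all genes tested were. In AC1.112, 19 were higher and 19 lower, against 8.5% and 14.3% of all genes. In AC1.203, 9 were higher and 20 lower, against 7.27% and 11.4%. In AC1.230, 15 were higher and 25 lower, against 8.24% and 14.5%. A call here means an adjusted p under 0.05 and a change of at least 2-fold. The 4 comparisons share the 3 libraries of 293F at 0 h, so a gene that stands apart in 293F enters all of them: 12 members were lower in every AC1 line (ZNF66, ZNF85, ZNF100, ZNF43, ZNF793, ZNF160, ZNF667, ZNF471, ZNF671, ZNF814, ZNF544 and ZNF132) and 5 were higher in every AC1 line (ZNF491, ZNF682, ZNF98, ZNF492 and ZNF610). These are 5.24% and 2.18% of the members tested, near the shares of all genes, 5.67% and 2.7%.

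Without a minimum fold change, 68 members rose and 57 fell in AC1P against 293F, where 30% and 32.4% of all genes tested did. In AC1.112, 71 rose and 59 fell (30.4% and 32.2% of all genes), in AC1.203, 38 and 88 (28.2% and 29.6%), and in AC1.230, 91 and 55 (30.5% and 31.6%). Under total-count scaling, which leaves out the TMM correction, these numbers were 46 and 94 in AC1P, 42 and 96 in AC1.112, 24 and 127 in AC1.203, and 54 and 76 in AC1.230. Only in AC1.203 did the members that fell outnumber those that rose under both scalings.

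The median log2 fold change of the members was 0.06 in AC1P, 0.04 in AC1.112, -0.16 in AC1.203 and 0.14 in AC1.230, where the median of all genes tested was between -0.04 and -0.02. With libraries scaled by their total count alone, the median of all genes moved to between -0.25 and -0.20, and the members' medians became -0.13, -0.17, -0.34 and -0.03 in the same order. The positive sign in AC1P, AC1.112 and AC1.230 therefore holds only under the TMM scaling and that of DESeq2, while under all 3 scalings the members lay above the median of all genes in those lines and below it in AC1.203. Under the total-count scaling the calls were 17 higher and 26 lower in AC1P, and 12 higher and 27 lower in AC1.112.

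**Figure D1:**
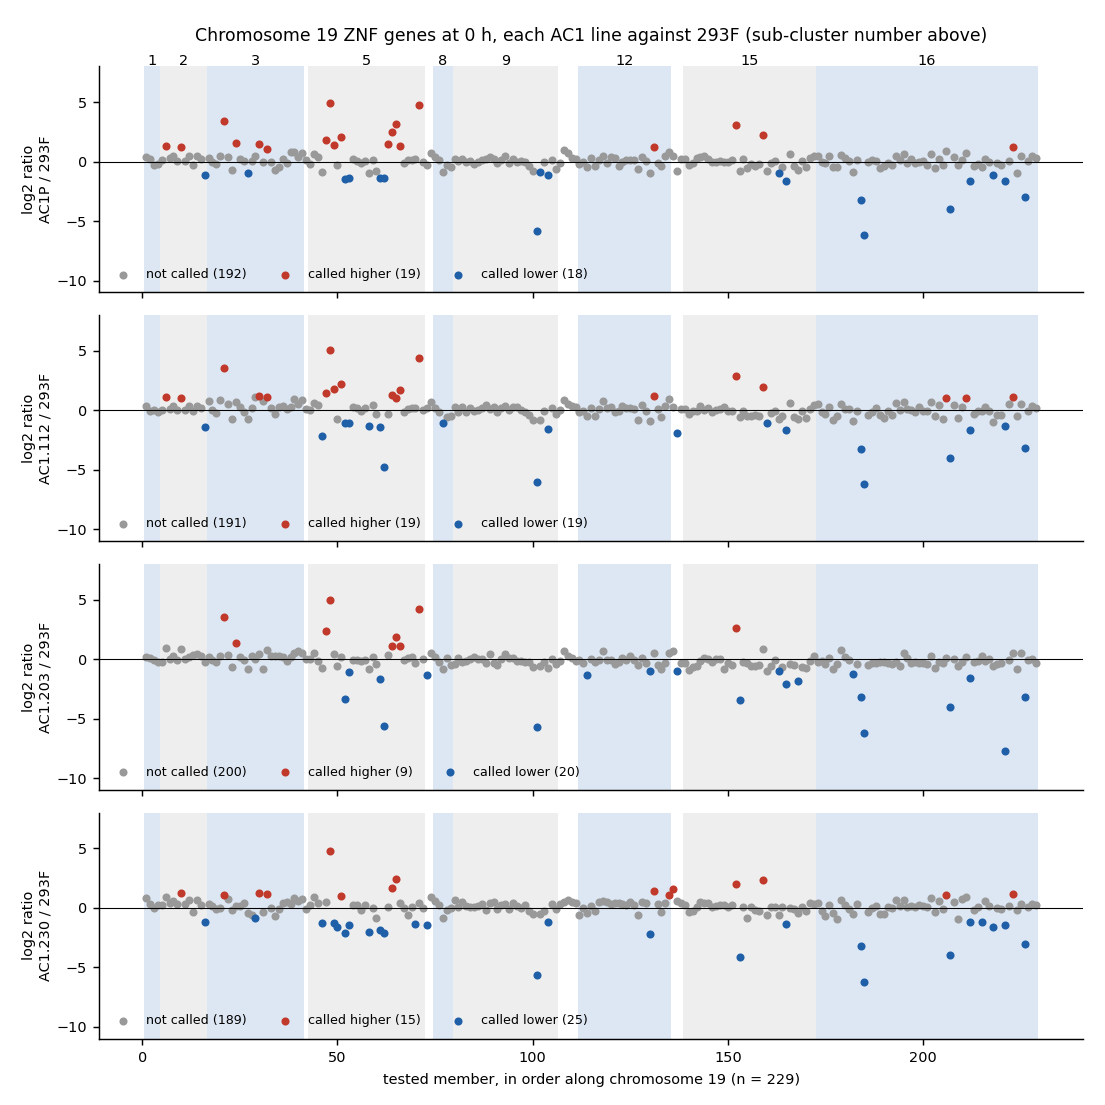
Each panel plots 1 AC1 line against 293F at 0 h: the y axis is the log2 ratio of mean CPM (n = 3 libraries a line, with 0.1 CPM added to both means), and the x axis is the rank of the 229 tested members along chromosome 19, with the 9 numbered sub-clusters shaded. Most members lie near 0, and the coloured points count the called members, from 9 higher in AC1.203 to 25 lower in AC1.230.

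ZNF471 (chr19:56507843-56530221, plus strand, sub-cluster 16) was at 8.14, 7.1 and 6.79 CPM in the 3 libraries of 293F. It had 0 counts in each library of AC1.112, AC1.203 and AC1.230 at 0 h, and 1 count in 1 of the 3 libraries of AC1P. Against 912 counts in 293F, a floor of 3 counts over the group put it at least 265-fold lower in AC1.112, at least 226-fold lower in AC1.203 and at least 279-fold lower in AC1.230. The ratio of AC1P to 293F was 0.0011, with a 95% counting interval of 2.77e-05 to 0.00612. The groups did not overlap, and edgeR's adjusted p was at most 3e-20 in the 4 comparisons (4.7e-21 in AC1P). After transfection the gene was at 5.63 to 10.7 CPM in 293F and at no more than 0.0503 CPM in any AC1 library.

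ZNF671 (chr19:57719751-57727624, minus strand, sub-cluster 16), whose window is printed above, was at 1.8, 1.61 and 1.08 CPM in 293F and at 0 counts in all 12 libraries of the AC1 lines. It was at least 62.4-fold lower in AC1P, 54.4-fold in AC1.112, 46.2-fold in AC1.203 and 57.3-fold in AC1.230 by the same floor, with adjusted p from 2.6e-10 to 1.7e-09. ZNF667, which lies on the minus strand before ZNF471 on the chromosome (chr19:56439325-56478065), was at 0.651, 0.923 and 0.926 CPM in 293F and at 0 counts in the same 12 libraries, at least 25.7- to 34.7-fold lower. ZNF132 (chr19:58432814-58440222), also in sub-cluster 16, was at 0.626, 0.813 and 1.03 CPM in 293F, with 3 counts over AC1P, 1 over AC1.230 and none over AC1.112 and AC1.203. Exons of ZNF667 overlap its antisense gene ZNF667-AS1, and the strand setting of the counting is not given in the sources used here, so the 2 cannot be told apart.

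ZNF793 (chr19:37506939-37548762, plus strand, sub-cluster 9) was at 17.1, 16.1 and 17.4 CPM in 293F. In the AC1 lines its 12 values ran from 0.0264 to 0.544 CPM, so that the lines differed by far more than their spread and no AC1 library reached 293F. The ratio to 293F was 0.0138 in AC1P (95% counting interval 0.00923 to 0.0199), 0.00875 in AC1.112, 0.0129 in AC1.203 and 0.0151 in AC1.230. Single libraries weigh on these low values: the fitted log2 change went from -6.19 to -7.77 without replicate 2 of AC1P and from -6.05 to -7.82 without replicate 1 of AC1.230. Its exons overlap ZNF793-AS1 and 1 other annotated gene.

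ZNF544 (chr19:58228594-58277495, plus strand, sub-cluster 16) separated the AC1 lines among themselves. It was at 43.1, 45.7 and 41.4 CPM in 293F, at 14.4, 13.9 and 13.9 in AC1P, at 19, 16.1 and 16.9 in AC1.112 and at 16.6, 16.4 and 13.2 in AC1.230. In AC1.203 it was at 0.329, 0 and 0 CPM, 10 counts in 1 library. The ratio of AC1.203 to AC1P was 0.00773 (95% counting interval 0.0037 to 0.0142; adjusted p 2.4e-33), and 293F lay 2.49- to 3.1-fold above the other 3 AC1 lines. After transfection AC1.203 stayed at no more than 0.0434 CPM.

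ZNF682 (chr19:19997058-20039506, minus strand, sub-cluster 5) went the other way. It was at 0.25, 0.154 and 0.0515 CPM in 293F and at 6.48 to 8.79 CPM in the 12 libraries of the AC1 lines. The log2 fold change was 5.62 ± 0.22 (SE) in AC1P, 5.72 ± 0.22 in AC1.112, 5.64 ± 0.22 in AC1.203 and 5.47 ± 0.22 in AC1.230, with adjusted p of at most 4.6e-32. The AC1 lines did not pass the test among themselves (largest log2 difference 0.25, adjusted p 0.30).

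Other members of sub-cluster 5 had different patterns over the lines. ZNF726 (chr19:23914876-23945159) had 1 count over the 3 libraries of 293F, while it was at 2.56, 3.6 and 2.15 CPM in AC1P, at 2.53, 2.04 and 2.08 in AC1.112 and at 2.1, 2.4 and 1.21 in AC1.203. In AC1.230 it was at 0.0907, 0.0264 and 0 CPM, so that AC1.230 lay with 293F and apart from the other 3 AC1 lines. The ratio of AC1.230 to AC1P was 0.015 (95% counting interval 0.00483 to 0.0353; adjusted p 2.5e-17), and the fitted log2 change went from -5.91 to -7.36 without replicate 1 of AC1.230.

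ZNF43 (chr19:21804949-21852125) was at 5.93, 5.63 and 6.9 CPM in 293F, at 2.72, 2.13 and 1.92 in AC1P and at 1.29, 1.32 and 1.4 in AC1.230. It was at 0.0895, 0.185 and 0.116 CPM in AC1.112 and at 0, 0.0739 and 0 CPM in AC1.203. The 5 groups did not overlap and followed that order. The adjusted p was 1.1e-09 for AC1P against 293F, 7.5e-17 for AC1.112 against AC1P and 1.5e-19 for AC1.203 against AC1P. Of the other members called higher in every AC1 line, ZNF98 and ZNF492 (sub-cluster 5) had 2 and 4 counts over 293F, ZNF491 (chr19:11797667-11809622, sub-cluster 3) had none, and ZNF610 (sub-cluster 15) had 15.

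ZNF491 was likewise low in 293F and AC1.230: it was at 0.913 to 1.01 CPM in AC1P, 0.917 to 1.32 in AC1.112 and 0.723 to 1.3 in AC1.203, and at 0.0622 to 0.181 CPM in AC1.230. It was at least 39.3-fold higher in AC1P than in 293F and at least 4.72-fold higher in AC1.230, where ZNF726 was not called higher than 293F. ZNF491, ZNF492 and ZNF726 each overlap unnamed annotated genes in their exons. Near-identical copies are common in sub-cluster 5, and how reads that match several copies were counted is not given, so values of its members carry that uncertainty.

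ZNF610 and ZNF880 are neighbours on the plus strand of sub-cluster 15 (chr19:52336245-52367778 and chr19:52369917-52385795). ZNF610 was at 0.1, 0.022 and 0.257 CPM in 293F and at 0.422 to 2.4 CPM in the AC1 libraries. ZNF880 was at 4.53, 3.71 and 4.27 CPM in 293F, at 1.98 to 2.77 in AC1P and at 2.73 to 3 in AC1.112, but at 0.132, 0.332 and 0.403 CPM in AC1.203 and at 0.136, 0.211 and 0.0622 CPM in AC1.230. Against AC1P the ratio for ZNF880 was 0.125 in AC1.203 (adjusted p 1.6e-12) and 0.0597 in AC1.230 (adjusted p 1.2e-15). The gene next to it was called higher than 293F in those same lines.

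A member was taken as off in a line when all 3 libraries at 0 h were under 0.1 CPM and as on when all 3 were at or above 1 CPM. By these limits 4 members were on in 1 line and off in another: ZNF471, ZNF671, ZNF43 and ZNF726. With limits of 0.2 and 0.5 CPM there were 9, the added ones being ZNF491, ZNF486, ZNF492, ZNF667 and ZNF132. Over all genes tested 1.16% met the first limits and 3.6% the wider ones, against 1.75% and 3.93% of the members, so the counts lie near the background.

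**Figure D2:**
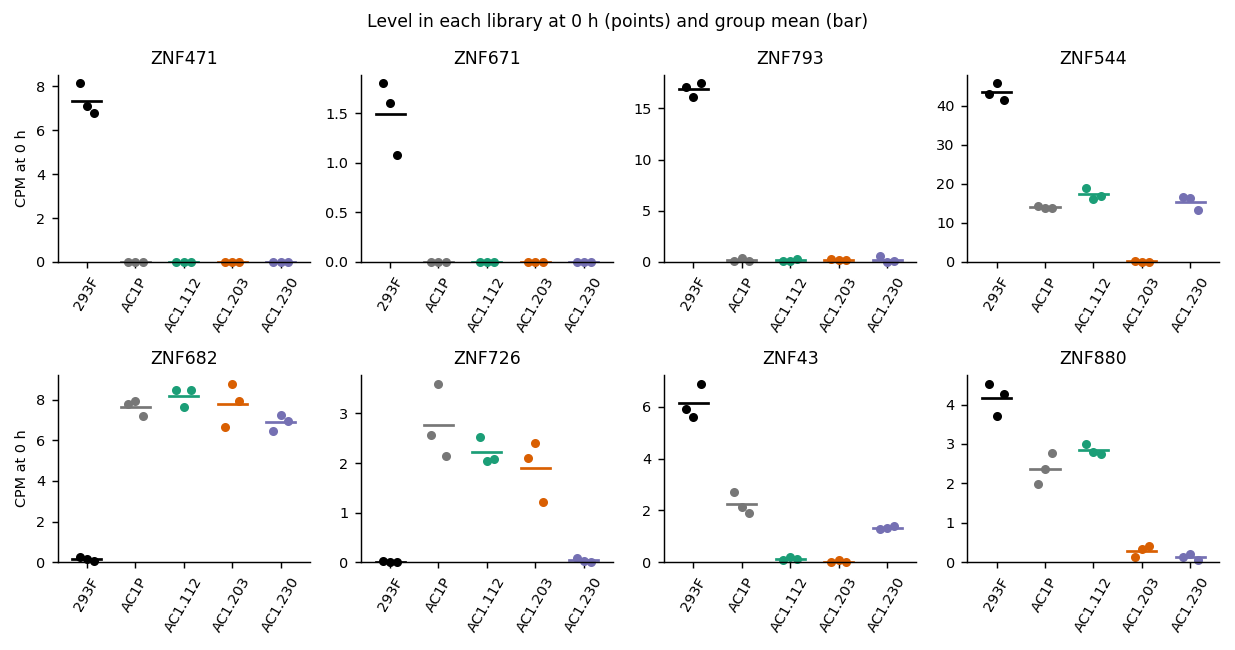
The panels give 8 members at 0 h: the y axis is CPM (from 0), each point is 1 of 3 libraries of the line on the x axis and the bar is the mean. ZNF471, ZNF671 and ZNF793 were high in 293F only, ZNF682 in the AC1 lines only, ZNF544 was near 0 in AC1.203, ZNF726 was low in 293F and AC1.230, and ZNF880 in AC1.203 and AC1.230.

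In the other sub-clusters the member with the largest range over lines differed less. It was 0.84 on the log2 scale for ZNF554 in sub-cluster 1, 1.51 for ZNF846 in sub-cluster 2, 1.07 for ZNF599 in sub-cluster 8 and 2.29 for ZNF233 in sub-cluster 12, each with an adjusted p of at most 6.9e-07. Sub-cluster 5, with 30 of the 229 tested members, held 9 of the 19 members called higher in AC1P, 8 of 19 in AC1.112, 6 of 9 in AC1.203 and 4 of 15 in AC1.230. It also held 4 of 18, 6 of 19, 4 of 20 and 9 of 25 of those called lower. Its members called higher had 1 to 20 counts over the 3 libraries of 293F, so their fold changes rest on levels near 0 there. Of the members called lower, sub-cluster 16, with 57 tested, held 7, 6, 7 and 8.

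The second comparison set the clones against the polyclonal AC1P, whose libraries the 3 comparisons share. AC1.112 had 0 members called higher and 5 lower, against 1.56% and 1.97% of all genes tested. AC1.203 had 1 higher and 11 lower, against 5.82% and 4.6%. AC1.230 had 2 higher and 14 lower, against 2.89% and 3.29%. The 1 member higher in AC1.203 was ZNF563 (log2 fold change 1.01 ± 0.21), and it fell below the 2-fold minimum when any of 27 single libraries was left out. ZNF114 was higher in AC1.230 (1.45 ± 0.27, adjusted p 9.4e-06).

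In AC1.203 the shift was broad and small. Without a minimum fold change, 97 members fell and 10 rose against AC1P, against 22% and 23.1% of all genes tested. The median log2 fold change was -0.21 for the members, 0.02 for all genes, -0.20 for ZNF genes on other chromosomes and -0.04 for the other coding genes of chromosome 19. Of the members without exon overlap with another gene, 49 of 100 fell and 5 rose. Leaving out replicate 2 of AC1.203 or replicate 1 of AC1P at 0 h brought the number that rose from 10 to 6 and 5.

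By position, sub-cluster 15 had the lowest median in AC1.203 against AC1P (-0.41), with 23 of 34 members lower and 0 higher. The median was -0.28 in sub-cluster 16, with 28 of 57 lower and 1 higher, and -0.26 in sub-cluster 12, with 14 of 24 lower and 0 higher. The other coding genes in these spans had medians of -0.39 (n = 3), -0.07 (n = 29) and 0.19 (n = 22). In sub-cluster 12 the members and their neighbours thus lay on opposite sides of 0. In sub-clusters 1, 3, 5, 8 and 9 the members' medians were between -0.13 and -0.04.

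AC1.230 had its lowest median in sub-cluster 5, at -0.55 against AC1P. There 10 of 30 members fell, 7 of them at least 2-fold, and 2 rose. Of all genes tested, 16.5% fell, 3.29% were called lower and 19.2% rose. Over all 229 members tested, 27 fell and 44 rose. The medians of AC1.230 in the other 8 sub-clusters were positive, from 0.04 in sub-cluster 3 to 0.34 in sub-cluster 1. In AC1.112 the medians lay between -0.16 and 0.18, and 4 of the 5 members called lower were in sub-cluster 5.

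**Figure D3:**
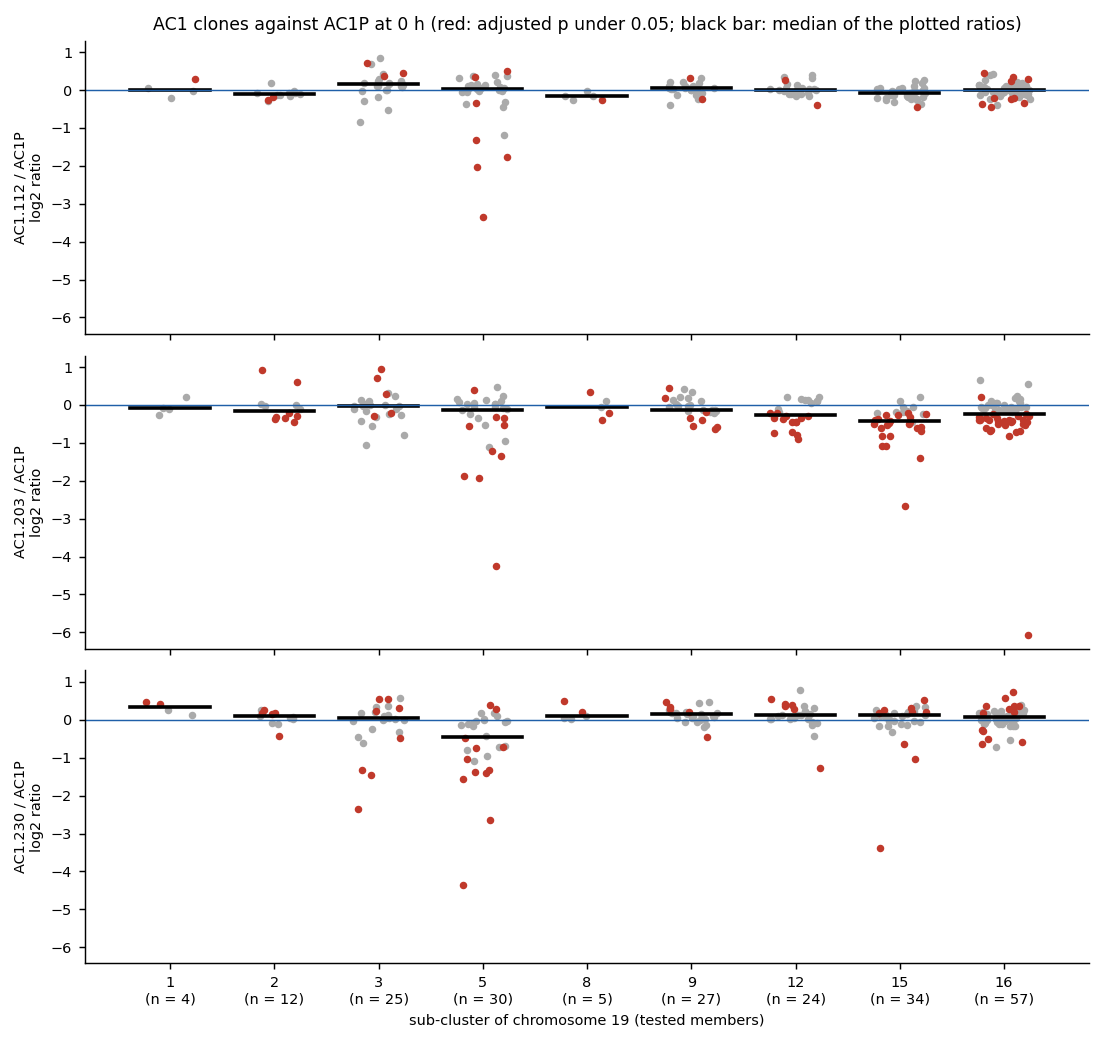
Each panel plots 1 clone against AC1P at 0 h as the log2 ratio of mean CPM (n = 3 a line, 0.1 CPM added), with 1 point for each tested member of the 9 sub-clusters on the x axis and a bar at the median. Points of AC1.203 lie mostly below 0 in sub-clusters 12, 15 and 16, and those of AC1.230 spread downward in sub-cluster 5.

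The third comparison asked how the members changed after transfection, with the 5 lines weighted equally. At 24 h, 144 of 229 members rose and 19 fell against 0 h (adjusted p under 0.05), where 25.8% of all genes tested rose and 27.6% fell. The median log2 fold change was 0.21, against -0.01 for all genes and -0.06 for the other coding genes of chromosome 19. Of the ZNF genes on other chromosomes, 148 of 243 rose and 22 fell, with a median of 0.18, and the difference from the members was not tested. In bulk RNA, a change in the share of cells that express a gene and a change in RNA per cell cannot be told apart.

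The rises were small. Among the members that rose, the median change was 1.21-fold, and 4 were at least 2-fold higher at 24 h (ZNF439, ZNF492, ZNF547 and ZNF671; 2.46% of all genes tested were), with 0 at least 2-fold lower (1.31%). The fitted change of ZNF671 (2.20) rests on counts near 0 in the AC1 lines and is no measure of size: in 293F it went from 1.08 to 1.8 CPM to 2.04 to 2.32 CPM. At 72 h, 128 members were higher and 16 lower than at 0 h, against 30.3% and 29.5% of all genes, with a median of 0.17 (all genes 0.03). At least 2-fold higher were 4 members at 72 h (ZNF491, ZNF844, ZNF540 and ZNF418; 6.37% of all genes), and 0 were 2-fold lower (0.226%). Low counts at 0 h weigh on some of these too. ZNF491 had 0 counts over 293F, ZNF844 had 0 and ZNF418 had 7 over AC1.230, and ZNF492, named at 24 h, had 4 over 293F. The sizes of their fitted changes are therefore uncertain. In number, 109 members (47.6%) rose at both times, 35 (15.3%) at 24 h only and 19 (8.3%) at 72 h only, where 15.3%, 10.5% and 15% of all genes did; the 2 comparisons share the libraries at 0 h.

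Between 24 and 72 h, 42 members rose and 70 fell, against 29.3% and 28.7% of all genes. The median was -0.03, while that of all genes was 0.03. This direction turned under total-count scaling, with 79 higher, 27 lower and a median of 0.06, where the median of all genes was 0.12; relative to all genes the members were lower under both scalings. At least 2-fold, 0 members were higher (4.38% of all genes) and 1, ZNF671, was lower (0.245%; adjusted p 0.048), a call on counts near 0 in the AC1 lines that total-count scaling did not give. The same scaling moved the median at 72 h against 0 h to 0.32, with all genes at 0.18.

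Each line alone showed more members higher than lower. At 24 h, 105 rose and 13 fell in 293F (19.8% and 22.1% of all genes), 69 and 6 in AC1P (9.85% and 9.5%), and 70 and 10 in AC1.112 (10.8% and 12.6%). In AC1.203, 100 rose and 12 fell (21% and 20.8%), and in AC1.230, 54 rose and 15 fell (12.1% and 14.7%). Changes of at least 2-fold were few: 4 members were higher in 293F (3.26% of all genes), 0 in AC1P (0.824%), 0 in AC1.112 (1.22%), 5 in AC1.203 (2.24%) and 1 in AC1.230 (1.7%). Lower were 1 in 293F (2.41%), 0 in AC1P (0.593%), 0 in AC1.112 (1.24%), 3 in AC1.203 (4.89%) and 1 in AC1.230 (0.49%). Leaving out replicate 3 of AC1.112 at 24 h lowered 70 to 46, and leaving out replicate 1 of AC1.230 at 24 h lowered 54 to 33. Under total-count scaling the numbers in AC1.230 were 71 and 9.

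At 72 h the numbers were 70 and 9 in 293F (18.3% and 21.9%), 85 and 4 in AC1P (12.7% and 13.2%), and 76 and 10 in AC1.112 (14.2% and 18.4%). They were 70 and 7 in AC1.203 (13.9% and 17%) and 46 and 16 in AC1.230 (17% and 22.1%), where total-count scaling gave 99 and 2. At 24 h, 21 members (9.17%) rose in each of the 5 lines and 79 (34.5%) in none, against 2.41% and 63.5% of all genes. Of the 144 that rose on average, 100 (69.4%) had the same sign in all 5 lines, against 56.2% of all genes that rose. The share of all counts that came from members was 0.32% ± 0.00534 (SD, n = 3) at 0 h, 0.408% ± 0.00327 at 24 h and 0.41% ± 0.00464 at 72 h in 293F, and it rose from 0.257% ± 0.0183 to 0.322% ± 0.00591 at 72 h in AC1.203.

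Every sub-cluster of at least 5 members had a positive median at 24 h, from 0.12 in sub-cluster 8 to 0.27 in sub-cluster 9, where 21 of 27 members rose and 2 fell. In sub-cluster 16, 33 of 57 rose and 8 fell (median 0.18), in sub-cluster 15, 23 of 34 and 2 (0.21), and in sub-cluster 5, 18 of 30 and 1 (0.24). The other coding genes in the spans of sub-clusters 2 and 12 had medians of -0.06 (n = 35) and -0.02 (n = 22) where the members had 0.25 and 0.24. Members with the KRAB signature rose in 91 of 141 and fell in 8, and those without it in 53 of 88 and 11. Across members, Spearman's rho between the number of fingers and the change at 24 h was 0.07 (229 genes, which are not independent replicates). At 72 h members with the signature rose in 84 of 141 and fell in 8 (median 0.20). Those without it rose in 44 of 88 and fell in 8 (median 0.11), and rho was 0.13. The differences between these groups were not tested.

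**Figure D4:**
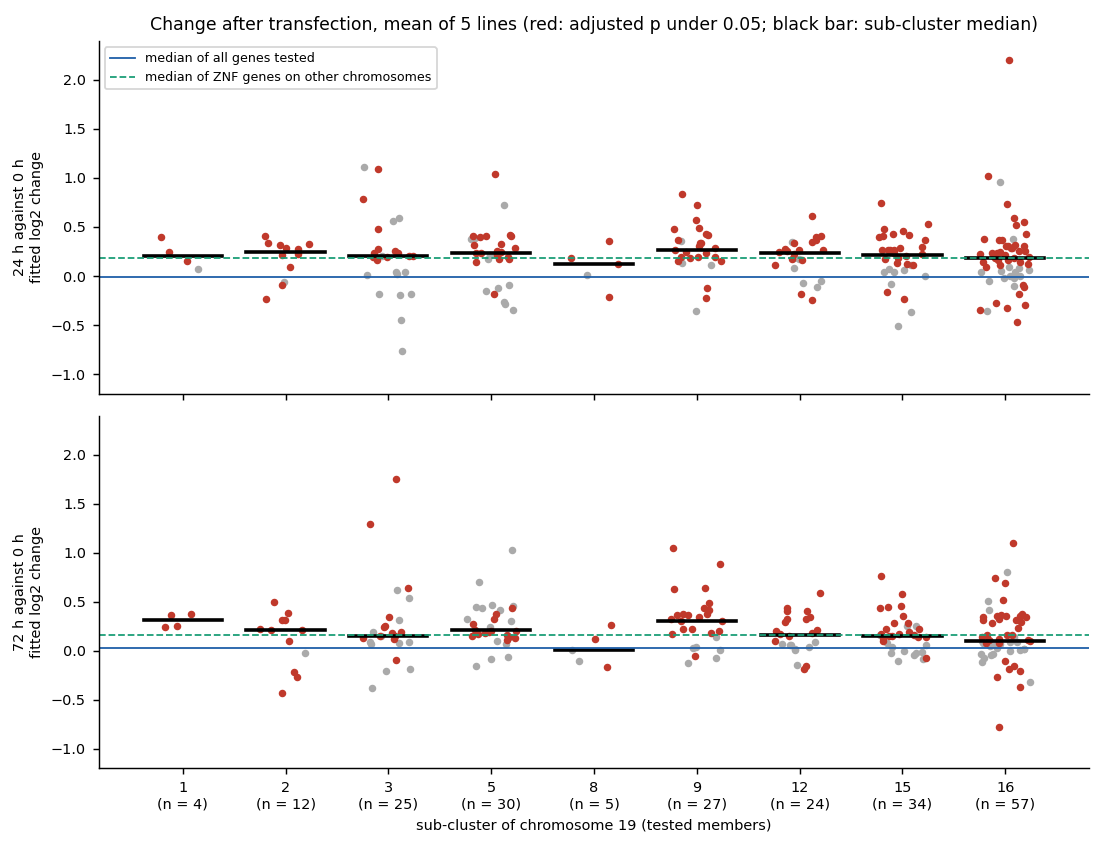
The fitted log2 change at 24 h (top) and 72 h (bottom) against 0 h, mean of the 5 lines (n = 15 libraries a time), is plotted for each tested member by sub-cluster, with bars at the sub-cluster medians and lines at the medians of all genes and of ZNF genes elsewhere. All 9 medians at 24 h lie above the line for all genes, from 0.12 to 0.27.

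ZNF566 (chr19:36445119-36489902, minus strand, sub-cluster 9) gave the clearest rise. Over 15 libraries it was at 8.18 to 14.4 CPM (median 11.3) at 0 h and at 16.6 to 21.2 CPM (median 19.7) at 24 h, and these did not overlap. At 72 h it was at 14.1 to 22.3 CPM (median 16.8). Its log2 change was 0.83 ± 0.04 (SE) at 24 h (adjusted p 4.5e-28) and 0.64 ± 0.04 at 72 h, positive in 5 of 5 lines. Its exons overlap the antisense gene ZNF566-AS1.

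ZNF547 (chr19:57363477-57379565, plus strand, sub-cluster 16) was at 0.806 to 2.46 CPM (median 1.47) at 0 h, 1.82 to 4.88 CPM (median 3.03) at 24 h and 1.21 to 4.36 CPM (median 2.66) at 72 h. Its ranges overlapped across lines, and its log2 change was 1.02 ± 0.11 at 24 h (adjusted p 1.8e-12), positive in 5 of 5 lines. Its exons overlap TRAPPC2B and 1 other annotated gene. ZNF836 (sub-cluster 15) changed by 0.74 ± 0.09, ZNF112 (sub-cluster 12) by 0.61 ± 0.05, ZNF780A by 0.61 ± 0.04 and ZNF583 (sub-cluster 16) by 0.59 ± 0.05.

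ZNF331 (chr19:53519527-53580269, plus strand, sub-cluster 15), an imprinted gene in human tissues, rose in steps. It was at 23.7 to 38 CPM (median 32.2) at 0 h, 37.5 to 51.4 CPM (median 41.8) at 24 h and 42.9 to 72.9 CPM (median 55.2) at 72 h. Its log2 change was 0.76 ± 0.05 at 72 h against 0 h (adjusted p 1.8e-14) and 0.36 ± 0.05 at 72 h against 24 h. ZNF793, low in the AC1 lines, changed by 0.88 ± 0.24 at 72 h (adjusted p 0.0017), where it was at 0.222 to 0.804 CPM in the AC1 lines and 19.1 to 21 CPM in 293F. At 0 h it had 16 to 29 counts over each AC1 line, against 2095 over 293F. Its fitted mean change thus rests largely on low counts and is no measure of size. ZNF8 changed by 0.69 ± 0.05 and ZNF441 by 0.64 ± 0.05.

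Few members fell, and by less. At 24 h ZNF536, which is known as a repressor in neuronal cells, changed by -0.50 ± 0.09, ZNF580 by -0.34 ± 0.04 and ZNF586 by -0.27 ± 0.05. ZNF875 went from a median of 43.4 CPM (37.5 to 45.7) to 36.6 CPM (34.9 to 38.1), a change of -0.23 ± 0.02 (adjusted p 1.5e-12). The falls of ZNF784 (-0.32 ± 0.07) and ZNF837 (-0.30 ± 0.09) did not pass without line 293F (-0.18, adjusted p 0.057) and without line AC1.112 (-0.17, adjusted p 0.17). ZNF580 rose again at 72 h against 24 h (0.43 ± 0.04), as did ZNF83 (0.38 ± 0.04), while ZNF583 (-0.43 ± 0.05), ZNF582 (-0.39 ± 0.06) and ZNF614 (-0.33 ± 0.03) fell.

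At 72 h ZNF559 was lower than at 0 h by -0.43 ± 0.04, ZNF784 by -0.37 ± 0.07, ZNF414 by -0.27 ± 0.04, ZNF552 by -0.27 ± 0.06 and ZNF628 by -0.21 ± 0.04. Under total-count scaling ZNF552 (-0.11, adjusted p 0.067) and ZNF628 (-0.06, adjusted p 0.27) no longer passed. The size of the change of ZNF544 (-0.78 ± 0.21, adjusted p 0.0013) depended on replicate 1 of AC1.203 at 0 h, which held the 10 counts of that group: without it the change was 0.24 (adjusted p 0.55). Without the whole line AC1.203 the gene still fell, by -0.14 (adjusted p 0.0018).

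**Figure D5:**
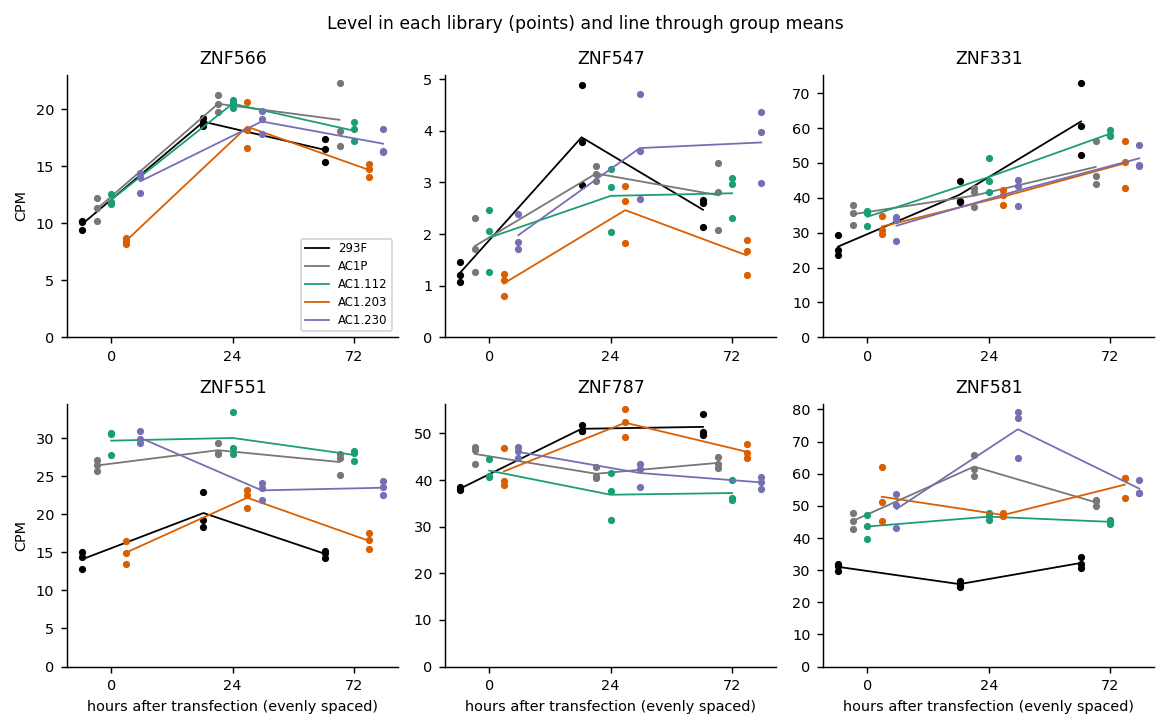
CPM (y axis from 0) is plotted for 6 members at 0, 24 and 72 h, with 1 point per library (n = 3 a line and time) and a line through the means of each cell line; the times are evenly spaced. ZNF566 and ZNF331 rise in all 5 lines, while ZNF551, ZNF787 and ZNF581 move in different directions in different lines.

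The response differed between lines for 84 members at 24 h (36.7%, against 43.9% of all genes tested) and for 49 at 72 h (21.4%, against 23.2%), by a test of the difference itself. ZNF551 (chr19:57681969-57717301, sub-cluster 16) was at 12.8, 14.4 and 15 CPM at 0 h and 19.2, 22.9 and 18.3 CPM at 24 h in 293F. In AC1.203 it went from 13.4, 14.8 and 16.5 to 20.9, 22.5 and 23.1 CPM. In AC1.230 it went from 30.9, 29.9 and 29.3 to 23.4, 24 and 21.9 CPM. The 2 times did not overlap in any of these lines: the log2 change was 0.52 in 293F, 0.57 in AC1.203 and -0.38 in AC1.230, and the adjusted p of the interaction was 5.9e-11. AC1P gave 0.11 (adjusted p 0.35) and AC1.112 gave 0.02 (adjusted p 0.90).

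ZNF787 (sub-cluster 16) rose from 37.9 to 38.5 CPM to 50.5 to 51.8 CPM at 24 h in 293F (log2 change 0.42), rose by 0.32 in AC1.203 and changed by -0.19 in AC1.112. ZNF581 changed by 0.59 in AC1.230 and 0.46 in AC1P at 24 h, but by -0.27 in 293F. ZNF580 and ZNF581 overlap in their exons on the same strand, so their counts are not independent. ZNF134 rose by 0.55 in 293F and 0.53 in AC1.203, with -0.11 (adjusted p 0.19) in AC1.230. At 72 h ZNF296 (sub-cluster 12) rose in 293F from 7.56, 7.94 and 8.23 to 13.2, 13.6 and 13.9 CPM, a log2 change of 0.78, while AC1.112 gave -0.18 (adjusted p 0.25).

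ZNF274, the member known to bring SETDB1 to the ends of other ZNF genes, was at 35.4 to 49.7 CPM at 0 h (median 41.5), 39.2 to 64.6 CPM (42.8) at 24 h and 45.9 to 73.9 CPM (50.5) at 72 h. Its log2 change was 0.16 ± 0.03 at 24 h (adjusted p 8.1e-07) and 0.36 ± 0.03 at 72 h (adjusted p 6.2e-18). At 0 h it was lower than 293F by -0.28 ± 0.06 in AC1P, -0.39 ± 0.06 in AC1.112 and -0.35 ± 0.06 in AC1.203, and gave -0.08 ± 0.06 (adjusted p 0.25) in AC1.230, which passed under total-count scaling (-0.26).

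TRIM28, the corepressor that KRAB domains bind, was at 802 ± 16.2 CPM (SD, n = 3) in 293F, 704 ± 29.2 in AC1P, 597 ± 40.2 in AC1.112, 636 ± 35.3 in AC1.203 and 806 ± 47.9 in AC1.230 at 0 h. It was lower than 293F in AC1.112 (log2 fold change -0.43 ± 0.06), AC1.203 (-0.34 ± 0.06) and AC1P (-0.19 ± 0.06, adjusted p 0.0028; 0.074 without replicate 2 of AC1P). After transfection it gave -0.04 ± 0.03 at 24 h (adjusted p 0.13), 0.01 under total-count scaling and -0.10 without line AC1.203 (adjusted p 0.0024), and fell by 0.24 at 72 h (adjusted p 1.7e-12). At 24 h it also passed as a fall without replicate 3 of AC1.112 at 0 h (adjusted p 0.048) and without replicate 2 of AC1.230 at 24 h (0.032). SETDB1 was higher in every AC1 line than in 293F, by 0.68 ± 0.05 in AC1P, 0.79 ± 0.05 in AC1.112, 0.43 ± 0.05 in AC1.203 and 1.02 ± 0.05 in AC1.230, and gave 0.06 ± 0.02 at 24 h (adjusted p 0.014). That last value did not pass without replicate 1 of AC1.112 at 24 h (adjusted p 0.062), replicate 2 of AC1.203 at 0 h (0.051) or replicate 3 of AC1.203 at 24 h (0.067), nor without the whole line AC1P (0.11) or AC1.230 (0.098). At 72 h SETDB1 gave 0.05 ± 0.02 against 0 h (adjusted p 0.051). It passed there under some alternatives, among them DESeq2 (adjusted p 0.03), total-count scaling (0.20, adjusted p 2.8e-12) and without line AC1.203 (adjusted p 0.019).

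The list of 28 genes of KRAB corepression and H3K9 methylation had no 2-fold call in the changes over time. At 24 h, 10 of 28 rose and 5 fell (median 0.03), at 72 h 5 rose and 14 fell (median -0.09), and between 24 and 72 h 2 rose and 21 fell (median -0.12). Of all genes tested, 25.8% rose and 27.6% fell at 24 h, 30.3% and 29.5% at 72 h, and 29.3% and 28.7% between 24 and 72 h. Against 293F at 0 h, 15 rose and 4 fell in AC1P, 13 and 7 in AC1.112, 13 and 8 in AC1.203, and 17 and 3 in AC1.230, where 28.2% to 30.5% of all genes rose and 29.6% to 32.4% fell. At least 2-fold higher were 4 genes of the list in AC1P, 2 in AC1.112, 1 in AC1.203 and 5 in AC1.230, and 0 were lower. Of all genes tested, 7.27% to 8.51% were called higher and 11.4% to 14.5% lower. In all 4 AC1 lines SETDB1, CBX5, MPHOSPH8, PPHLN1, MORC3, DAXX, DNMT1, UHRF1, CHD3 and HDAC2 were higher (adjusted p under 0.05). ATF7IP2 (-0.92, -0.98, -0.48 and -0.87) and TASOR2 (-0.44, -0.31, -0.53 and -0.44) were lower in all 4, in the same order of lines. The list was counted under the TMM scaling only. Total-count scaling moved the median of all genes against 293F to between -0.25 and -0.20, and at 72 h against 0 h to 0.18. Small changes in the list, such as HDAC2 in AC1.112 (0.18) and PPHLN1 in AC1P (0.21), may therefore depend on the scaling. The difference between the list and all genes was not tested. The list was chosen with earlier results of these data known.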

How the data were processed

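RNA was made into poly(A)-selected stranded libraries, per the labels' protocols. The authors deposited gene counts per library, made with HISAT2 and featureCounts (Subread) on GRCh38, per the submitters' processing notes; neither the strand setting nor the annotation release was stated. Of 60675 gene IDs, 57055 were found in GENCODE 29, which gave positions and coding sequences. Groups came from the labels. Libraries held 24727028 to 59837051 counts. Counts were fitted with edgeR 4.0.16 (quasi-likelihood test, TMM scaling, filterByExpr with a minimum count of 10; R 4.3.3) over all 45 libraries with 1 mean per group, and p-values were adjusted by Benjamini-Hochberg over all genes tested. A member rose or fell at an adjusted p under 0.05, and was called at a change of at least 2-fold besides. CPM, as edgeR gives it, divides a count by the TMM-scaled library size. Each SE is the absolute log2 fold change divided by the square root of the F statistic of its test. It is approximate, most of all where counts are near 0. Intervals of count ratios are exact at 95% and, like the floor of 3 counts, cover counting error only. The script was tested on simulated data for the mean change at 24 h only, with changes of at least 2-fold in genes well above 0 counts. That test did not cover the comparisons between lines, the interaction or smaller changes. Alternatives were DESeq2 1.42.0, its size factors in edgeR, no filter, a replicate block, each library or line left out and, added after the data were seen, total-count scaling.

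The members and lists were chosen with earlier results of these data known. Named members were those with the largest changes in each comparison, the smallest interaction p, the largest range in each sub-cluster and every on/off gene. The largest changes over time needed the same sign in all 5 lines, and those between lines at least 1 CPM in the higher group. ZNF667, ZNF132, ZNF98, ZNF439, ZNF844, ZNF540, ZNF418 and the members with the highest levels were named after their values were seen. So were CBX5, MPHOSPH8, PPHLN1, MORC3, DAXX, DNMT1, UHRF1, CHD3, HDAC2, ATF7IP2 and TASOR2. Finger and KRAB matches were searched in the longest GENCODE 29 coding sequence, translated, with patterns set after the files were seen.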

Additional observations from a re-analysis of the deposited data

Results flagged for a closer look

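The change after transfection differed between the 5 lines for 84 members at 24 h and 49 members at 72 h, by edgeR's test of the interaction with adjusted p under 0.05, which 43.9% and 23.2% of all genes tested also passed. At 24 h the log2 changes of ZNF551 spanned a range of 0.95 over the lines, those of ZNF581 0.87, those of ZNF134 0.66 and those of ZNF787 0.61. At 72 h the range was 0.96 for ZNF296, 0.65 for ZNF787, 0.54 for ZNF227 and 0.36 for ZNF875. ZNF227 rose by 0.58 in 293F and gave 0.04 in AC1.230, and ZNF875 gave 0.11 in 293F and -0.22 in AC1.230.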

How the results depend on the processing

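Over 55 alternative settings, 106 results on named genes gave 5476 values. Of these, 5442 kept their direction and their side of the adjusted p threshold of 0.05, and 11 changed sign. Another 13 passed that threshold only under the alternative and 10 only in the main analysis. The 2-fold minimum was not part of this count, so the lost calls of ZNF563 counted as kept. Most settings left out 1 of the 45 libraries, and most of these libraries are not in a given comparison between lines at 0 h. Many named genes were picked for large changes or small p, so the count does not measure how firm the results are. Tests over all lines give a range, which cannot change sign, and a missing adjusted p was counted as kept. Sizes could still move: without replicate 1 of AC1.203 at 0 h, ZNF544 in AC1.203 against 293F went from -8.60 to -13.75. Without replicate 2, ZNF43 went from -7.95 to -10.93. Total-count scaling, added after the data were seen, moved the counts most: 12 members were then higher in AC1.112 than in 293F, 12 fell at 24 h and 4 at 72 h, and the median at 72 h became 0.32. Between 24 and 72 h it gave 79 that rose, 27 that fell and a median of 0.0635, opposite in sign to -0.03. Within lines it gave 9 that fell at 24 h in AC1.230, and at 72 h 122 that rose and 2 that fell in 293F, 0 that fell in AC1P, 125 and 3 in AC1.112, 107 and 2 in AC1.203, and 99 and 2 in AC1.230. Without the filter on low counts, 0 members were higher in AC1.203 and 1 in AC1.230 than in AC1P, and with wider limits 9 members were on in 1 line and off in another. With single libraries left out, the members higher than AC1P numbered 0 to 1 in AC1.112 (1 without replicate 2 of AC1.112 at 0 h), 0 to 1 in AC1.203 and 1 to 2 in AC1.230, and 5 to 10 rose in AC1.203 against AC1P. At 24 h, 46 to 71 rose in AC1.112 and 33 to 58 rose and 9 to 15 fell in AC1.230 (9 without replicate 2 at 0 h). At 72 h, 4 to 10 fell in 293F (4 without its replicate 3 at 72 h), 2 to 6 in AC1P (2 without its replicate 3 at 72 h), 6 to 11 in AC1.112 (6 without its replicate 2 at 0 h) and 10 to 17 in AC1.230 (10 without its replicate 1 at 0 h). Sign changed for ZNF544 at 72 h (0.24 without replicate 1 of AC1.203 at 0 h, and from -1.14 to 0.24 over the libraries left out), for TRIM28 at 24 h (0.0118 under total-count scaling) and for SETDB1 between 24 and 72 h (0.0829 under total-count scaling, 0.0016 without line AC1.203 and 0.0039 without line AC1.230). TRIM28 in AC1.230 against 293F, near 0, became -0.0264 with DESeq2 and with its size factors in edgeR, -0.0011 without the filter, -0.17 under total-count scaling, -0.0394 without replicate 3 of AC1.230 and -0.007 without replicate 1 of 293F, with a range of -0.0394 to 0.0445 over the libraries left out (0.0445 without replicate 2 of AC1.230). Apart from the causes in an alternative's own construction, the cause was not tested.

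Replicate numbers did not pair the samples: deviations of same-numbered libraries had a median correlation of -0.00085 and none over 0.067. With the replicate block 143 members rose and 20 fell at 24 h, and 60 differed between the lines. No result named here changed its side of the adjusted p threshold of 0.05. Depth limits the lowest members, where 1 count decides a ratio.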
